A study of Homo sapiens with 16 samples.

Results

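The genes described are the simple and luminal keratins, 9 genes (KRT7, KRT8, KRT18, KRT19, KRT20, KRT23, KRT80, KRT81 and KRT86) found by gene name among the 58721 in the count table. They were followed in 16 libraries of 3' mRNA sequencing, a method that reads the end of each transcript, from 2 human bladder cancer cell lines. RT112 is used as a luminal model and was grown in RPMI, and SCaBER is used as a basal model and was grown in DMEM, so line and medium cannot be told apart. Every library came from cells given 10 nM of a small interfering RNA (siRNA) with a lipid reagent, either 1 of 2 siRNAs against the transcription factor FOXA1 (siFOXA1.1 and siFOXA1.2) or 1 of 2 control siRNAs (siControl.1 and siControl.2). In each line an siRNA is represented by a pair of libraries (2 per siRNA), which the labels number as experiment batch replicates 1 and 2. No untransfected cells are among the samples, and nothing says that the replicates came from separate cultures, so the p-values measure the spread between these libraries, which may be technical.

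Keratins are the intermediate filament proteins of epithelial cells, and each filament is built from pairs of an acidic type I chain and a basic type II chain. KRT8 and KRT18 are the pair of simple, single-layered epithelia and among the first to appear in development. KRT7 (type II) and KRT19 (type I) are widespread in the urothelium, the lining of the bladder, and KRT20 (type I) marks its mature umbrella cells and is used in pathology as a luminal marker. KRT80 is a type II keratin of differentiating epithelia, KRT23 is a type I keratin, and KRT81 and KRT86 are type II hair keratins that some carcinomas also express. Stratified epithelia rest on other pairs, KRT5 with KRT14 in the basal layer and KRT4 with KRT13 in internal epithelia.

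In GRCh38.p14 of RefSeq, 6 of the genes, KRT18 among them, lie in the type II cluster on chromosome 12. KRT80 (ENSG00000167767) spans 52168996 to 52192014, KRT7 (ENSG00000135480) 52233243 to 52255853, and KRT86 (ENSG00000170442) 52274645 to 52309163. KRT81 (ENSG00000205426) spans 52285913 to 52291534, inside the span of KRT86 and on the opposite strand. KRT8 (ENSG00000170421) spans 52897191 to 52949860 and KRT18 (ENSG00000111057) 52948855 to 52952906, on opposite strands with ends that overlap. On chromosome 17 lie KRT20 (ENSG00000171431, 40875889 to 40885242), KRT23 (ENSG00000108244, 40922700 to 40937646) and KRT19 (ENSG00000171345, 41523617 to 41528308).

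KRT81 and KRT86 are close copies, so the part of each transcript that a library reads decides whether they can be told apart. Cut into windows of 100 bases, 555 of the 1830 windows of the KRT81 transcript in GENCODE 44 are also in KRT86 or the pseudogene KRT87P, but 0 of the 401 windows in its last 500 bases are. For KRT86 the numbers are 564 of 2148 windows and again 0 of the 401 at the end. The longest stretch the coding sequences share is 605 bases, from coding position 61 to 665 in both genes. Its first 90 bases, 5' to 3', show the identical part:
KRT81 and KRT86: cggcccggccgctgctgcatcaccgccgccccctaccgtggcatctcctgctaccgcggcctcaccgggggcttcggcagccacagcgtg
The last 90 coding bases, up to the stop codon, show the part that differs. Capitals mark the bases that differ from KRT81, 50 in KRT86 and 59 in the neighbouring hair keratin KRT83:
KRT81: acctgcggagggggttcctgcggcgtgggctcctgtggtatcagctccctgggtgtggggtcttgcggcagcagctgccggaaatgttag
KRT86: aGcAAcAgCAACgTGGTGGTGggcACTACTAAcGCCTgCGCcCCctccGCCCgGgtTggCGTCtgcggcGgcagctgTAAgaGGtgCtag
KRT83: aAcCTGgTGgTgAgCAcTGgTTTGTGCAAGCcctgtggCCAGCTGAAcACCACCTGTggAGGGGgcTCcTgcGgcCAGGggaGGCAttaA
The ends of KRT81 and KRT86 can thus be told apart by their letters, and KRT87P had 0 counts in all 16 libraries. KRT8 shares 120 of 1685 windows with its processed pseudogenes and 5 of 401 at its end, with KRT8P3. The other 6 members share none with another keratin gene or keratin pseudogene. Pseudogenes of KRT8, KRT18 and KRT19 together took 62 to 191 counts per library. Of the members, the promoter table of RefSeq (GRCh38.p14) holds KRT8 and KRT20. On either strand neither sequence has the forkhead letters TGTTTAC, which 3.42% of 35116 promoters hold, and each has 1 match to the looser TGTTTNC, which 18% hold. The KRT8 sequence, 52926420 to 52926719, lies inside the gene's span and away from both of its ends. Any other start of KRT8 was therefore not searched.

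FOXA1 was measured first because it is the target. In RT112 it had 266 and 195 counts under siControl.1, 137 and 204 under siControl.2, 9 and 22 under siFOXA1.1, and 63 and 117 under siFOXA1.2. Both siFOXA1 ranges lay below the controls, and the fall passed the test for siFOXA1.1 (log2 change -3.45, SE 0.47, adjusted p = 1.39e-05) but not for siFOXA1.2 (-1.10, SE 0.39, adjusted p = 0.215). In SCaBER FOXA1 had 3 to 15 counts in the controls and 0 to 6 under the siFOXA1 siRNAs, too few to measure a fall. These and all later changes are from edgeR's quasi-likelihood test on raw counts, with Benjamini-Hochberg adjustment over all genes tested and a threshold of 0.05. Library totals ranged from 4528513 to 7604581 counts, and a floor of 3 counts was 0.394 to 0.662 CPM (counts scaled by the library total to a common depth). Mitochondrial genes took 25.7% and 28.2% of the counts in the siFOXA1.1 libraries of RT112, against 17.99% to 21.2% in the other 6 RT112 libraries and 10.3% to 12.1% in SCaBER. Their part in the results for siFOXA1.1 in RT112 was not tested beyond leaving these genes out of the fit, which changed no call on a member there. Luminal urothelial markers summed to 1119 to 2099 CPM in RT112 and 26.5 to 57.4 CPM in SCaBER, basal markers to 318 to 714 and 2557 to 4142 CPM, and UPK3A, a luminal marker, was at 0 in both lines. Of 14 leukocyte, fibroblast and endothelial markers, COL1A1 and 1 endothelial marker passed the floor in RT112, as did 1 fibroblast and 1 endothelial marker in SCaBER.

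The lines carried different members of the family. Under the control siRNAs the order of levels in RT112, on the TPM scale (counts divided by gene length and brought to a common total), was KRT19, KRT7, KRT18, KRT8, KRT80, KRT81, KRT86, KRT23 and KRT20. KRT19 averaged 2627 ± 162 TPM, KRT7 932 ± 153, KRT18 778 ± 70.9, KRT8 149 ± 7.71 and KRT80 78.9 ± 41.8 TPM (SD, n = 4 each). KRT7 and KRT18 overlapped in range, as did KRT81 with KRT86 and KRT23 with KRT20, while the other neighbours did not. In SCaBER the hair keratin KRT81 led at 2124 ± 308 TPM, followed by KRT18 at 667 ± 89.6, KRT80 at 233 ± 80.5 and KRT8 at 122 ± 30.7 TPM (SD, n = 4 each). KRT80 and KRT8 overlapped, and so did KRT86 (16.3 ± 6.59 TPM) and KRT7 (12.9 ± 4.77 TPM, SD, n = 4 each), whose order turns on the CPM scale.

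**Figure D1:**
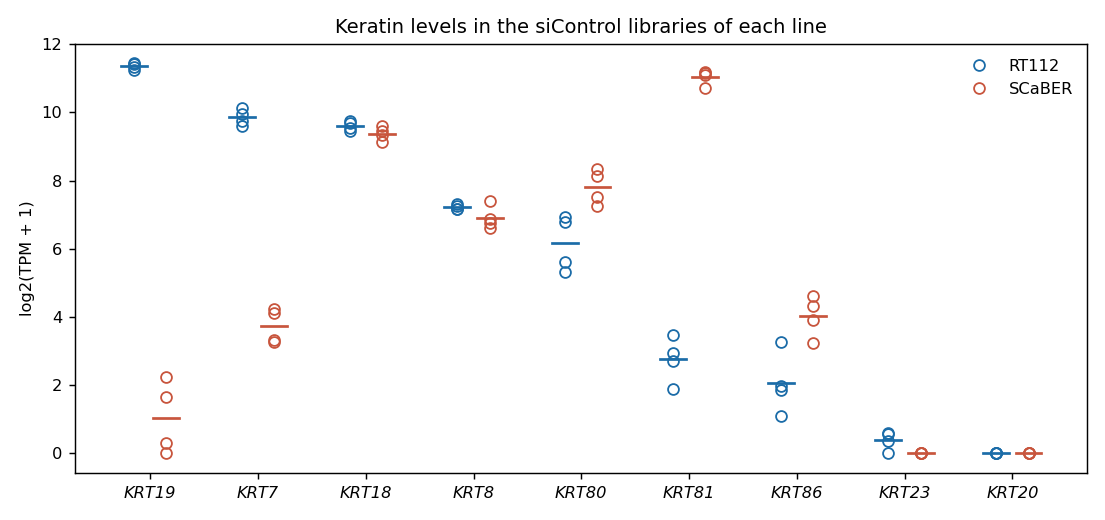
Deposited TPM of the 9 keratins in the 4 siControl libraries of each line, as log2(TPM + 1). Circles are libraries and bars are means. KRT19 and KRT7 stand high in RT112 and low in SCaBER, KRT81 the reverse, and KRT8 and KRT18 lie close together in the lines.

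The sharpest contrasts between the lines were in KRT19, KRT81 and KRT7. KRT19 had 20367 to 25675 counts in the 4 RT112 control libraries and 0, 1, 12 and 21 in those of SCaBER. Its log2 difference of 12.50 (SE 0.20, adjusted p = 1.09e-14) rests on SCaBER libraries of which 2 were under the floor. KRT81 went the other way, with 19 to 68 counts in RT112 and 7779 to 10882 in SCaBER (log2 difference, RT112 minus SCaBER, -8.04, SE 0.24, adjusted p = 5.05e-12). KRT7 had 11377 to 16073 counts in RT112 and 86 to 161 in SCaBER, a difference of 6.57 (SE 0.23, adjusted p = 2.01e-11).

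All 7 members tested differed between the lines under siControl, 4 higher in RT112 and 3 lower, where 46.2% of the 14036 genes tested passed. KRT8 (0.71, SE 0.12, adjusted p = 0.000203) and KRT18 (0.63, SE 0.09, adjusted p = 7.02e-05) were higher in RT112. Both calls are lost on the TPM scale, with adjusted p of 0.113 and 0.114 by limma on log2(TPM + 1). In that setting KRT8 was at 0.32 and KRT18 at 0.23, while the median over all genes moved from 0.02 to -0.31. KRT80 (-1.26, SE 0.12, adjusted p = 4.78e-07) and KRT86 (-1.83, SE 0.48, adjusted p = 0.00632) were lower in RT112. KRT20 had 0 counts in 15 libraries and 5 counts in RT112 siFOXA1.2 replicate 1. KRT23 had 0 to 18 counts in RT112 and 0 in all 8 SCaBER libraries, where a count of 0 allows up to 0.434 to 0.662 CPM per library by counting error alone. Neither passed the filter on low counts, so 7 of the 9 members were tested.

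Beside the members, the other keratins separated the lines too. Of 21 basal and stratified keratins 16 were tested, and 7 were higher and 7 lower in RT112, where 46.2% of all genes passed. The stratified pair KRT4 and KRT13 averaged 905 ± 170 and 5254 ± 670 CPM in the RT112 controls (SD, n = 4), with KRT4 at 0 and KRT13 at 9.91 ± 10.1 CPM in SCaBER. KRT6B, a keratin of activated epidermis, ran the other way, with 0 to 1 counts in RT112 and 358 to 1473 in SCaBER (-11.50, SE 0.44, adjusted p = 1.46e-10). Of 24 other hair and inner root sheath keratins only 1 was tested, and it was not called. KRT83 had 0 to 8 counts in RT112 and 0 to 19 in SCaBER, and KRT85 had 0 in every library. The 24 together came to at most 2.96 CPM in a SCaBER library, so KRT81 stood high there without most of the hair keratin family. Of 13 linkers and binding proteins of keratin filaments tested, 3 were higher and 8 lower in RT112, against the same 46.2%. Of 7 other intermediate filament genes 3 were higher and 2 lower.

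In RT112, siFOXA1.1 lowered KRT7, KRT18 and KRT19 and raised KRT80 and KRT81. KRT7 fell to 57.9%, KRT18 to 60.1% and KRT19 to 72.1% of the controls, KRT80 rose 2.65-fold and KRT81 rose 28.9-fold, and KRT8 did not pass the test. That made 5 of 7 members called, 2 higher and 3 lower, where 29.1% of 13462 genes passed. The median log2 change of the 7 was 0.01, against -0.02 over all genes. With library totals in place of TMM the median over all genes moved to -0.14, and the share of higher genes among those called moved from 47.96% to 37.8% (22.6% by limma on log2(TPM + 1)), so changes are best read against that shift. In the same comparison all 6 luminal urothelial markers tested were lower (median -0.96). FOXA1, the target of the siRNA, is among these 6, so its fall enters both the count and the median. Of 6 basal markers 3 were higher (median 0.46) and none of them lower.

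KRT7 had 2114 and 2417 CPM under siControl.1, 1715 and 1581 under siControl.2, 1024 and 1031 under siFOXA1.1, and 1454 and 1391 under siFOXA1.2. All 4 siFOXA1 libraries lay below all 4 control libraries, with siFOXA1.1 the lowest. The log2 change was -0.79 (SE 0.09, adjusted p = 9.4e-07) for siFOXA1.1 and -0.43 (SE 0.08, adjusted p = 0.00956) for siFOXA1.2. The second call depends on the reference, since against siControl.2 alone the change was -0.17 (adjusted p = 0.631). It is also lost by limma with a pseudocount of 1 or 0.1 (adjusted p of 0.11 and 0.123) and without siFOXA1.2 replicate 2 (-0.40, adjusted p = 0.0836).

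KRT18, the type I partner of KRT8, had 1386 and 1449 CPM under siControl.1, 1167 and 1129 under siControl.2, 743 and 665 under siFOXA1.1, and 981 and 1039.6 under siFOXA1.2. Again no siFOXA1 library reached a control library. The change was -0.74 (SE 0.09, adjusted p = 2.41e-06) for siFOXA1.1 and -0.32 (SE 0.09, adjusted p = 0.0619) for siFOXA1.2, the latter called with the replicate block (adjusted p = 0.0271). Against siControl.1 alone the siFOXA1.2 change was -0.50 (adjusted p = 0.00537). It is smaller than the 0.37 (SE 0.10, adjusted p = 0.0586) by which siControl.1 stood above siControl.2, so its size depends on the reference.

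KRT19 had 3376 and 3164 CPM under siControl.1, 3170.2 and 2831 under siControl.2, 2159 and 1990.2 under siFOXA1.1, and 2744 and 2535 under siFOXA1.2. Here too the siFOXA1 libraries were below all control libraries, by a smaller margin. The change was -0.47 (SE 0.08, adjusted p = 7.68e-05) for siFOXA1.1 and -0.23 (SE 0.07, adjusted p = 0.159) for siFOXA1.2, with adjusted p = 0.0436 for the latter under the replicate block.

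KRT8 stood apart from its partner. It had 518 and 517 CPM under siControl.1, 509 and 548 under siControl.2, 454 and 509.7 under siFOXA1.1, and 396 and 415 under siFOXA1.2. The siFOXA1.1 libraries overlapped the controls and the siFOXA1.2 libraries did not. The change under siFOXA1.1 was 0.01 (SE 0.10, adjusted p = 0.975). Its direction turns under library totals (-0.12) and on the TPM scale (-0.31, adjusted p = 0.0338 by limma on log2(TPM + 1)). The median over all genes was -0.14 and -0.27 in these settings, against -0.02 in the main fit. Under siFOXA1.2 the change of KRT8 was -0.35 (SE 0.10, adjusted p = 0.101, or 0.0483 with the replicate block).

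KRT80 differed between the control siRNAs themselves. In RT112 it had 250.4 and 275 CPM under siControl.1 but 82.8 and 103 under siControl.2, while siFOXA1.1 gave 369 and 391 and siFOXA1.2 gave 102 and 149. The siFOXA1.1 libraries were above every control library, whereas siFOXA1.2 lay between the controls. The rise under siFOXA1.1 was 1.41 (SE 0.14, adjusted p = 2.7e-07), less than the 1.56 (SE 0.17, adjusted p = 1.77e-05) that parted siControl.1 from siControl.2. Under siFOXA1.2 the value was -0.30 (SE 0.15, adjusted p = 0.456), and it turned from -1.08 (adjusted p = 0.000757) against siControl.1 to 0.48 (adjusted p = 0.280) against siControl.2.

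KRT81 moved in opposite directions under the siRNAs. In RT112 it had 43 and 68 counts under siControl.1, 19 and 47 under siControl.2, 1038 and 1125 under siFOXA1.1, and 3 and 1 under siFOXA1.2. The siFOXA1.1 libraries were far above, and the siFOXA1.2 libraries below, every control library. The rise was 4.85 on the log2 scale (SE 0.28, adjusted p = 2.25e-10), or 159 ± 9.70 CPM (SD, n = 2) against 6.25 ± 3.18 CPM (SD, n = 4) in the controls. The fall under siFOXA1.2 passed the test too (adjusted p = 0.00026), but not by limma on log2(TPM + 1) (adjusted p = 0.0526). Because 4 counts carry it, its size is given as the ratio of the summed controls to siFOXA1.2, 21.7, with a 95% exact interval from 8.32 to 80.5 that covers counting error only. Even after its rise KRT81 in RT112 stayed below the 983 to 1718 CPM seen in SCaBER.

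KRT86, the close copy of KRT81, was sparse. RT112 had 83 and 22 counts under siControl.1, 26 and 10 under siControl.2, 36 and 118 under siFOXA1.1, and 15 and 5 under siFOXA1.2. The siFOXA1 ranges overlapped the controls for each siRNA. The values were 1.58 (SE 0.69, adjusted p = 0.0965) under siFOXA1.1 and -1.52 (SE 0.82, adjusted p = 0.515) under siFOXA1.2. The first was 2.20 (adjusted p = 0.0056) without siFOXA1.1 replicate 1 and 0.43 without siFOXA1.1 replicate 2. It also passed without siControl.2 replicate 1 (adjusted p = 0.0413), siFOXA1.2 replicate 1 (0.0443) or siFOXA1.2 replicate 2 (0.0419).

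**Figure D2:**
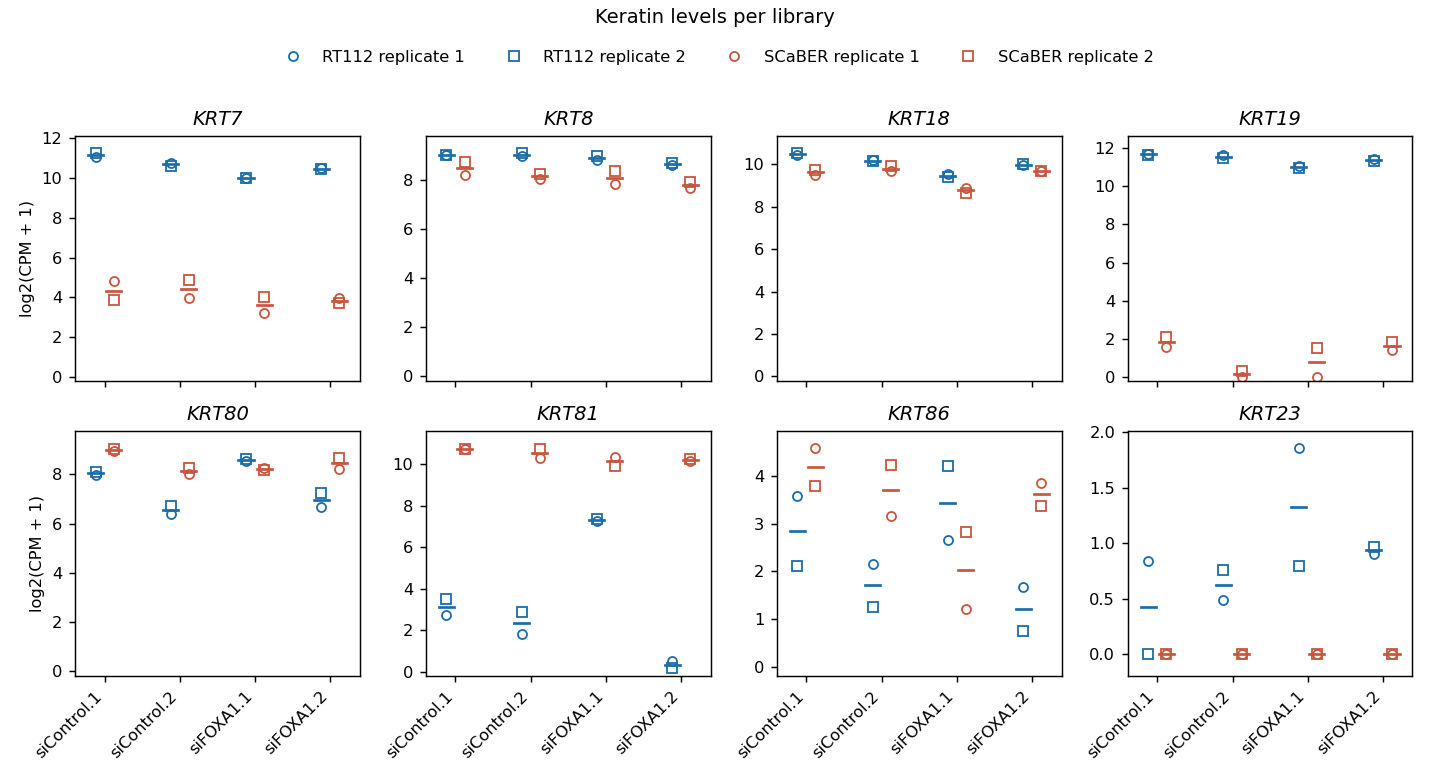
Level of 8 keratins in every library, as log2(CPM + 1), by siRNA and line, with circles for replicate 1, squares for replicate 2 and bars for the mean of the pair. KRT7, KRT18 and KRT19 step down under siFOXA1.1 in RT112, KRT80 differs between the control siRNAs, and KRT81 in RT112 rises under siFOXA1.1 and nears 0 under siFOXA1.2.

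Under siFOXA1.2 against both controls, 2 of 7 members were called in RT112, KRT7 and KRT81, both lower, where 1.78% of 13462 genes passed. With the replicate block, the fit in which libraries of the same batch number are paired, 5 of 7 members were called, and 5 by DESeq2, but 0 and 1 were called by limma with a pseudocount of 1 and 0.1, and 1 against siControl.2 alone. The count was 5 without either siFOXA1.1 library, 4 without siControl.2 replicate 2, and 1 without siFOXA1.2 replicate 2. The median log2 change of the 7 was -0.35, against 0.02 over all genes.

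Compared directly, siFOXA1.1 and siFOXA1.2 differed in RT112 at all 7 members tested, where 24.7% of genes passed. KRT81 (9.16, SE 0.54, adjusted p = 5.43e-10), KRT86 (3.09, SE 0.92, adjusted p = 0.0173), KRT80 (1.71, SE 0.17, adjusted p = 5.16e-07) and KRT8 (0.36, SE 0.12, adjusted p = 0.0294) were higher under siFOXA1.1. KRT18 (-0.41, SE 0.10, adjusted p = 0.00364), KRT7 (-0.36, SE 0.10, adjusted p = 0.00888) and KRT19 (-0.24, SE 0.09, adjusted p = 0.0452) were lower. The calls on KRT8, KRT19 and KRT86 are lost without siFOXA1.1 replicate 2, with adjusted p of 0.249, 0.0825 and 0.199, which leaves 4 of 7. Those on KRT8 and KRT19 are lost without siFOXA1.2 replicate 1 (0.19 and 0.264), and those on KRT8 and KRT86 without siFOXA1.2 replicate 2 (0.0853 and 0.0823). By other settings KRT8 is lost with library totals (adjusted p = 0.124) and by limma on log2(TPM + 1) (0.07, adjusted p = 0.676), KRT19 with DESeq2 size factors (0.0826), and KRT86 by limma (0.0737).

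The controls themselves differed at 2 of 7 members in RT112, where 2.11% of genes passed. KRT80 (1.56) and KRT7 (0.52, SE 0.10, adjusted p = 0.0049) were higher under siControl.1, though KRT7 did not pass without siControl.1 replicate 2 (0.41, adjusted p = 0.0911). KRT18 was at 0.37 (SE 0.10, adjusted p = 0.0586, or 0.0241 with the replicate block). In SCaBER 0 of 7 members passed in the same comparison by edgeR, where 0.0671% of 13407 genes did, while 1 was under an unadjusted p of 0.05 and DESeq2 called 1. That member was KRT80, with 493 and 524 CPM under siControl.1 and 261 and 306 under siControl.2 (0.83, SE 0.21, adjusted p = 0.244 by edgeR), and it passed by edgeR without siFOXA1.1 replicate 1 (adjusted p = 0.00439) or replicate 2 (0.00544). Its controls thus did not overlap in either line, siControl.1 being the higher.

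Pooled by target, 0 of 7 members passed in RT112 by edgeR, where 0.108% of 11986 genes did. An unadjusted p under 0.05 was reached by 4 of them, KRT7 (-0.61), KRT18 (-0.52), KRT19 (-0.34) and KRT81 (3.80), with adjusted p of 0.273 to 0.336, and DESeq2 called 0. KRT81 shows what pooling joins here, libraries with 1038 and 1125 counts and libraries with 3 and 1. In SCaBER 0 of 7 members passed by edgeR, where 0.0084% of 11902 genes did, 1 was under an unadjusted p of 0.05 (KRT81, -0.43, adjusted p = 0.495) and DESeq2 called 0.

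In SCaBER, siFOXA1.1 lowered KRT18 to 53.2% of the controls, and it was the only 1 of 7 members called, where 7.87% of 13407 genes passed. KRT18 had 719 and 853 CPM under siControl.1, 818 and 959 under siControl.2, 467 and 402 under siFOXA1.1, and 824 and 814 under siFOXA1.2. The siFOXA1.1 pair was below every other library and the siFOXA1.2 pair lay among the controls. The change was -0.91 (SE 0.17, adjusted p = 0.00298), and directly against siFOXA1.2 it was -0.90 (SE 0.19, adjusted p = 0.0114), 1 member of 7 called where 4.13% of genes passed. The direct call is lost without siFOXA1.2 replicate 1 (adjusted p = 0.101) or replicate 2 (adjusted p = 0.0703). Under siFOXA1.2 the value for KRT18 was -0.01 (SE 0.16).

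KRT8 in SCaBER had 296 and 432 CPM under siControl.1, 266 and 309 under siControl.2, 228 and 329 under siFOXA1.1, and 206 and 241 under siFOXA1.2. As in RT112, the siFOXA1.2 pair and not the siFOXA1.1 pair lay below all controls. The values were -0.19 (SE 0.20, adjusted p = 0.654) and -0.51 (SE 0.20, adjusted p = 0.872).

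KRT81, the most abundant member in SCaBER, had 1707 and 1696 CPM under siControl.1, 1279 and 1718 under siControl.2, 1323 and 983 under siFOXA1.1, and 1132 and 1213 under siFOXA1.2. Only the siFOXA1.2 pair lay below all 4 controls. The values were -0.43 for siFOXA1.1 (SE 0.17, adjusted p = 0.162) and -0.42 for siFOXA1.2 (SE 0.17, adjusted p = 0.876). The first is called without siFOXA1.1 replicate 1 (-0.71, adjusted p = 0.00182).

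KRT86 in SCaBER had 137 and 82 counts under siControl.1, 49 and 80 under siControl.2, 7 and 42 under siFOXA1.1, and 87 and 59 under siFOXA1.2. On the CPM scale the siFOXA1.1 pair was below all controls, at 1.33 and 6.07. The value of -1.98 (SE 0.62, adjusted p = 0.0668) was called with the replicate block (-2.06, adjusted p = 0.0317), which raises the count of members called to 2 of 7. KRT86 was also called by DESeq2 (adjusted p = 0.0253) and without siFOXA1.1 replicate 2 (-3.42, adjusted p = 0.00359), siControl.2 replicate 1 (0.0288) or siControl.1 replicate 2 (0.0252).

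KRT7 and KRT80 did not pass against both controls in SCaBER. KRT7 had 26.8 and 13.4 CPM under siControl.1, 14.6 and 28.3 under siControl.2, 8.33 and 14.9 under siFOXA1.1, and 14.5 and 12.2 under siFOXA1.2. KRT80 had 305 and 285 CPM under siFOXA1.1 and 296 and 408 under siFOXA1.2, within the range of its controls. The values under siFOXA1.1 were -0.81 for KRT7 (SE 0.44, adjusted p = 0.32) and -0.33 for KRT80 (SE 0.18, adjusted p = 0.309). The value for KRT80 was -0.75 (adjusted p = 0.0478) against siControl.1 alone and 0.08 against siControl.2 alone. KRT19 had 0 and 13 counts under siFOXA1.1 and 11 and 16 under siFOXA1.2. Under siFOXA1.2 against both controls 0 of 7 members passed by edgeR, where 0.0373% of genes did, with 2 under an unadjusted p of 0.05 (KRT8 and KRT81) and 0 called by DESeq2.

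**Figure D3:**
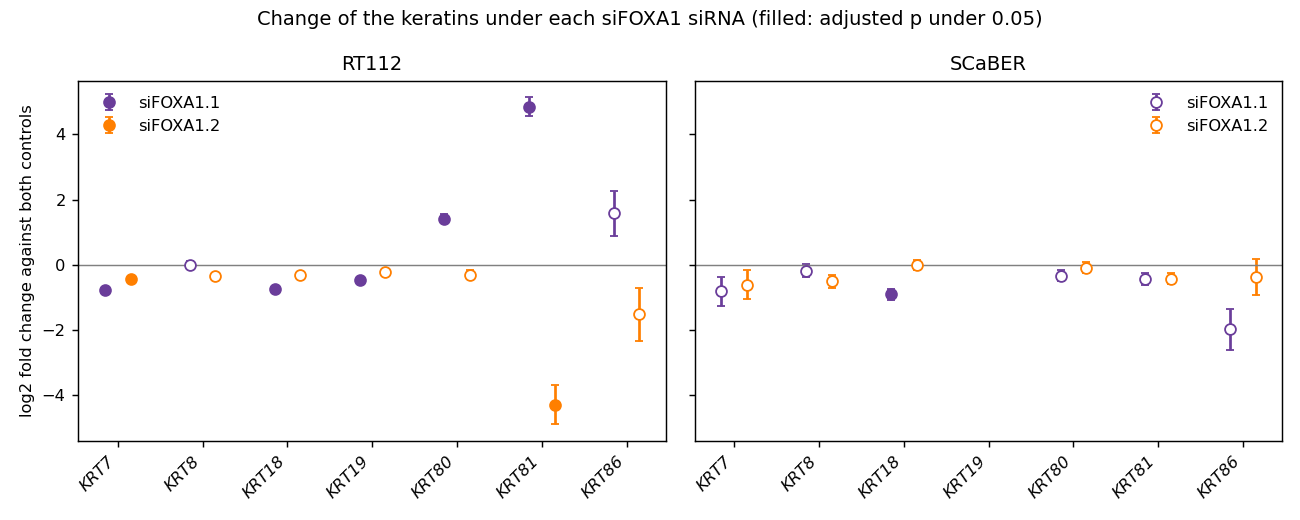
Log2 fold change of the tested keratins under each siFOXA1 siRNA against both controls (edgeR, bars are the standard error, filled symbols have an adjusted p under 0.05). KRT19 in SCaBER is not drawn because its counts were 0 to 21. In RT112 the siRNAs part at KRT80, KRT81 and KRT86, and in SCaBER KRT18 under siFOXA1.1 is the filled symbol. KRT81 under siFOXA1.2 in RT112 rests on 4 counts.

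Whether the lines responded differently was tested as the difference between the change in RT112 and that in SCaBER. For siFOXA1.1, 2 of 7 members passed, where 2.59% of 15464 genes did. KRT81 differed by 5.27 (SE 0.34, adjusted p = 1.41e-08) and KRT80 by 1.72 (SE 0.24, adjusted p = 0.000415), each more positive in RT112. KRT86 had 3.55 (SE 1.01, adjusted p = 0.0651) and passed with the replicate block (3.96, adjusted p = 0.0274), by DESeq2 (0.0245) and without the filter on low counts (0.00492), making 3 of 7. With 1 library left out it ran from 2.41 to 5.00. It missed the threshold without SCaBER siFOXA1.1 replicate 1, SCaBER siControl.2 replicate 2, or replicate 2 of RT112 siControl.1, siControl.2 or siFOXA1.1, and passed without each of the other libraries. For KRT18, which fell in both lines, the difference was 0.16 (SE 0.18, adjusted p = 0.815), or -0.10 on the TPM scale. For siFOXA1.2 the only 1 of 7 was KRT81 at -3.88 (SE 0.62, adjusted p = 0.012), where 0.0453% of genes passed. That call rests on the sparse RT112 counts and is lost by limma on log2(TPM + 1) (adjusted p = 0.199), with -3.27 to -4.82 when 1 library was left out.

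The balance within the KRT8 and KRT18 pair shifted with siFOXA1.1 in RT112. In RT112 there were 0.374 and 0.357 KRT8 counts per KRT18 count under siControl.1, 0.436 and 0.485 under siControl.2, 0.611 and 0.766 under siFOXA1.1, and 0.403 and 0.399 under siFOXA1.2. In SCaBER the ratios were 0.411 and 0.506, 0.326 and 0.322, 0.488 and 0.819, and 0.250 and 0.297 in the same order. The siFOXA1.1 libraries were above all controls in RT112 and overlapped them in SCaBER, where the siFOXA1.2 pair lay below all controls. Summed over the members, the ratio of type II to type I transcripts came to 0.524 to 0.796 in RT112 and 2.01 to 4.01 in SCaBER on the count scale. On the TPM scale the ratio was 0.295 to 0.481 and 2.70 to 5.46. These are transcript ratios, and protein was not measured. With all keratins counted, the ranges were 0.258 to 0.611 in RT112 and 0.695 to 1.71 in SCaBER on the count scale. The members together took 0.620% to 0.784% of the counts in the RT112 controls, 0.477% and 0.491% under siFOXA1.1, and 0.553% and 0.568% under siFOXA1.2. In SCaBER they took 0.265% to 0.354%, 0.202% and 0.233%, and 0.249% and 0.270%. The siFOXA1.1 pair was the lowest in both lines, and the RT112 pair is also that with the high mitochondrial share.

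**Figure D4:**
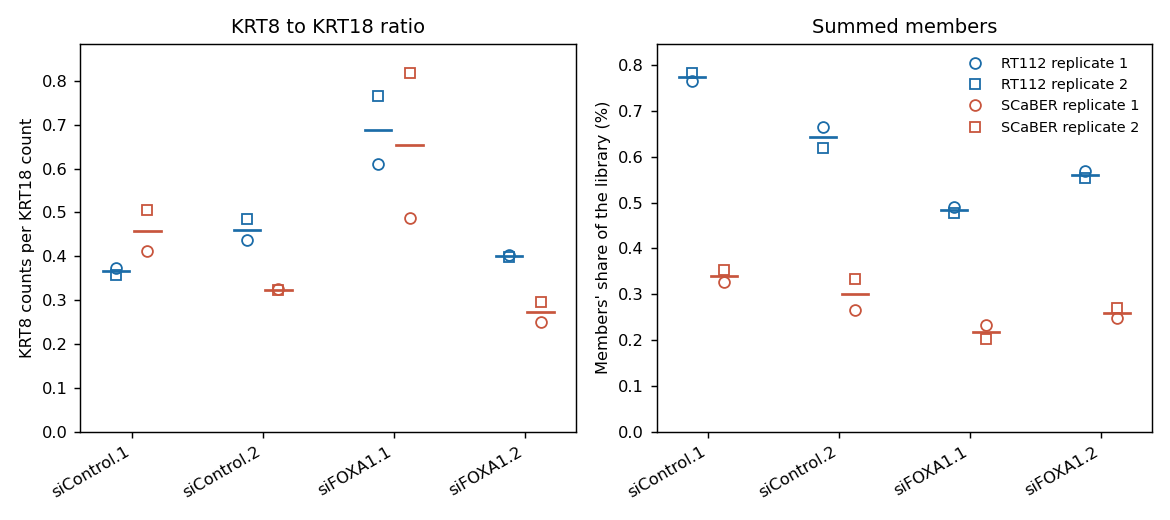
KRT8 counts per KRT18 count (left) and the share of each library's counts held by the 9 keratins in percent (right), by siRNA and line, with circles for replicate 1, squares for replicate 2 and bars for the mean of the pair. The ratio is highest and the share lowest under siFOXA1.1 in both lines, on means of 2 libraries.

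Other filament genes give the setting. Of 14 basal and stratified keratins tested in RT112, siFOXA1.1 raised 1 and lowered 5, where 29.1% of all genes passed. KRT4 fell to 149 ± 41.2 CPM (SD, n = 2) from 905 ± 170 (SD, n = 4), a change of -2.48 (SE 0.17, adjusted p = 2.61e-09). Its partner KRT13 fell to 1009 ± 268 CPM (SD, n = 2) from 5254 ± 670 (-2.26, SE 0.12, adjusted p = 7.58e-11). The hair and skin type II keratins did not all go with KRT81. KRT1, a keratin of the upper epidermis, had 19 to 62 counts in the controls and 0 in both siFOXA1.1 libraries, at least 13.3-fold lower with a floor of 3 counts per library. KRT77 had 3 to 30 and 0, at least 5.86-fold lower. In siFOXA1.2 replicate 1 KRT1 went the other way, at 179 counts (26.1 CPM) against a control mean of 5.84 CPM. The basal keratin KRT5 rose by 0.78 (SE 0.19, adjusted p = 0.00458). KRT13 and KRT5 are named here after their values were seen. Under siFOXA1.2 none was called higher and 2 were called lower, KRT4 (-0.88, SE 0.16, adjusted p = 0.00383) and KRT17 (-0.79, SE 0.12, adjusted p = 0.000601). In SCaBER, where 7.87% of all genes passed, siFOXA1.1 raised 2 of 11, KRT6B (1.78, SE 0.28, adjusted p = 0.00109) and KRT17 (1.40, SE 0.18, adjusted p = 0.000181). The median log2 change of the basal and stratified keratins under siFOXA1.1 was -0.43 in RT112 and 0.48 in SCaBER, against -0.02 and 0.01 over all genes.

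Among 13 keratin linkers and binding proteins tested in RT112, siFOXA1.1 raised 1 and lowered 5, against the same 29.1%. Desmoplakin (DSP), which anchors keratin at desmosomes, fell to 128 ± 17.0 CPM (SD, n = 2) from 421 ± 66.4 (SD, n = 4), a change of -1.59 (SE 0.12, adjusted p = 7.53e-09). In SCaBER DSP was at 741 ± 151 CPM (SD, n = 2) against 730 ± 185 (SD, n = 4), and the line difference of the change was -1.66 (SE 0.27, adjusted p = 0.00116). Of the other intermediate filament genes 2 of 6 fell in RT112, a share near that of all genes, and 2 of 5 in SCaBER under siFOXA1.1, and both were nuclear lamins. LMNB1 changed by -2.12 (SE 0.24, adjusted p = 1.75e-06) in RT112 and -1.04 (SE 0.25, adjusted p = 0.0167) in SCaBER, and LMNB2 by -1.38 (SE 0.18, adjusted p = 7.57e-06) and -1.77 (SE 0.27, adjusted p = 0.000879). Under siFOXA1.2, 0 of 13 linkers and binding proteins and 0 of 6 other filament genes were called in RT112, where 1.78% of all genes passed. In SCaBER the same siRNA gave 0 of 13 and 0 of 5, where 0.0373% passed. Of other cell type markers, COL1A1, a fibroblast collagen named after its values were seen, was at 55.2 ± 1.84 CPM under siFOXA1.1 in RT112 (SD, n = 2) and at 7.81 to 11.8 CPM on average under the other siRNAs. COL3A1, PDGFRB and DCN were at 0 throughout RT112.

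For each tested member the 2 genes with the most similar pattern were found among 10211 genes, as Pearson's r of log2(CPM + 1) over the 16 libraries with each line's mean taken off. These values describe the profiles, and all of them share the same libraries, siRNAs and depth. KRT81 had the closest, GJA5 (r = 0.963), and KRT18 had NPM1 (0.944) and NCAPH2 (0.940). KRT80 was most like CISD1 (0.891) and CDA (0.888), KRT8 like ZNF426 (0.859) and RPA3 (0.844), and KRT7 like GALNT12 (0.850) and EPAS1 (0.849). KRT19 was most like SAMD4B (0.842) and TRIOBP (0.841), and KRT86 like ACOT2 and SRD5A3 (0.773 each). Between members the highest were KRT80 with KRT81 (0.754) and KRT18 with KRT7 (0.664), while KRT18 with its partner KRT8 had 0.130.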

How the data were processed

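The authors deposited raw counts per gene and TPM values, which divide counts by gene length and scale each library to 1 total. The authors' configuration file and the submitters' processing notes give trimming by TrimGalore 0.6.2 (minimum quality 20, minimum length 10) and STAR 2.6.1a, which both placed the reads on hg38 and made the counts, with genes from GENCODE 29. The study's methods name hg19 and another siRNA amount than the labels' 10 nM. In a 3' library counts do not grow with gene length, so TPM can change the order of genes. Strandedness was detected automatically, so reads in overlapping genes (KRT81 and KRT86, KRT7 and KRT86, KRT8 and KRT18) may be lost or assigned to the wrong gene. The size of such a loss was not tested.

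Counts were fitted with edgeR 4.0.16 in R 4.3.3 (TMM, filterByExpr, quasi-likelihood F test, SE from the fold change and F), per line with 1 mean per siRNA, pooled by target, between lines under siControl, and over all 16 libraries for line differences. Pooled fits treat the siRNAs of a target as replicates. DESeq2 1.42.0 and limma 3.58.1 on log2(TPM + 1) and log2(TPM + 0.1) were alternatives. The labels' batch numbers pair the libraries. Differences between replicates correlated between siRNAs at r of -0.0158 to 0.00592 in RT112 and 0.00587 to 0.16 in SCaBER (6 pairs of siRNAs each). On simulated counts the per-siRNA fit was checked before use. Those counts had less spread than these libraries and no difference between the control siRNAs. The check therefore does not show how the fit performs at the spread seen here. Levels are CPM of the library total. Beside the members and FOXA1, up to 3 called genes per list and comparison (those with the greatest change), near-identical genes of a member, and the 2 genes most like each member (mean of at least 5 CPM) were named, except 1 gene that is not reported here. The members and lists were chosen with earlier results of these data known. Adapter and index lists were not used.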

Additional observations from a re-analysis of the deposited data

Results flagged for a closer look

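Over 35 sets of 4 libraries of a line (both siRNAs of a target), 4 held a library far from the other 3. For libraries of a single group chance gives about 1 set in 20. These sets join different siRNAs, and those of KRT20 and KRT23 rest on few counts, so that rate need not hold here. KRT20 stood at 0.729 CPM in RT112 siFOXA1.2 replicate 1, on 5 counts, and at 0 in the other siFOXA1 libraries of the line. KRT23 stood at 2.64 CPM in RT112 siFOXA1.1 replicate 1, on 18 counts, against 5 to 7 counts in the other siFOXA1 libraries. KRT80 stood at 408 CPM in SCaBER siFOXA1.2 replicate 2, above 285 to 305 CPM in the other siFOXA1 libraries. KRT81 stood at 1279 CPM in SCaBER siControl.2 replicate 1, below 1696 to 1718 CPM in the other controls.

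The lines differed in their change at 2 members by a test of the difference (edgeR). For siFOXA1.1, RT112 minus SCaBER was 1.72 at KRT80 and 5.27 at KRT81 on the log2 scale. For siFOXA1.2 it was -3.88 at KRT81, on 3 and 1 counts in the RT112 libraries.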

How the results depend on the processing

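Alternatives were run for 57 fold changes, giving 1036 values, of which 929 kept their direction and their side of the threshold. Of the rest, 57 passed the threshold only under the alternative, 31 passed it only in the fit reported, and 19 turned direction. The cause of these changes was not tested.

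KRT8 under siFOXA1.1 in RT112 (0.01) turned to -0.12 with library totals, -0.31 by limma with either pseudocount and -0.0088 against siControl.1 alone, and ran from -0.11 to 0.11 with 1 library left out. In that comparison the median over all genes moved from -0.02 to -0.14 with library totals and -0.27 by limma on log2(TPM + 1). KRT80 under siFOXA1.2 turned to 0.48 in RT112 and 0.33 in SCaBER against siControl.2 alone, and under siFOXA1.1 in SCaBER to 0.082. With 1 library left out, KRT80 under siFOXA1.2 in SCaBER ran from -0.33 to 0.12, KRT8 under siFOXA1.1 in SCaBER from -0.43 to 0.015, and KRT18 under siFOXA1.2 in SCaBER from -0.063 to 0.047, the last also turning to 0.091 against siControl.1 alone. The line difference of KRT18 under siFOXA1.1 was -0.10 by limma with either pseudocount.

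The 2 members called under siFOXA1.2 in RT112 became 5 by DESeq2 and with the replicate block, 0 and 1 by limma with a pseudocount of 1 and 0.1, 4 and 1 against siControl.1 or siControl.2 alone, and 1 to 5 with 1 library left out. The 7 between the siFOXA1 siRNAs in RT112 ran from 4 to 7 with 1 library left out. The 2 between the RT112 controls became 1 by limma with either pseudocount and ran from 1 to 3 with 1 library left out. Pooled in RT112, 0 became 1 without the filter (KRT81). The 1 under siFOXA1.1 in SCaBER became 2 without the filter, by DESeq2, with the replicate block and against siControl.1 alone, and ran from 1 to 2 with 1 library left out. The 1 between the siFOXA1 siRNAs in SCaBER became 0 by limma and ran from 0 to 2 (KRT86 passed without siFOXA1.1 replicate 2, adjusted p = 0.0192). Between the SCaBER controls 0 became 1 without the filter and by DESeq2, and ran from 0 to 1. The 1 line difference under siFOXA1.2 became 2 without the filter and 0 by limma, and ran from 1 to 2. The replicate block changed no call on a member beyond those given with the results.

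Counts over all genes moved more. Under siFOXA1.2 in RT112 they ran from 43 to 586 genes and between the RT112 controls from 38 to 671. In SCaBER they ran from 580 to 1599 under siFOXA1.1, 0 to 61 under siFOXA1.2, 176 to 1267 between the siFOXA1 siRNAs and 0 to 134 between the controls. Pooled by target they ran from 0 to 179 in RT112 and 0 to 213 in SCaBER, and for the line differences from 377 to 994 and 6 to 66. Higher genes made up 52.1% of calls between the RT112 controls and 46.0% between the siFOXA1 siRNAs, but 40.6% and 36.4% with library totals and 42% and 23.3% by limma on log2(TPM + 1), which under siFOXA1.2 in RT112 gave 30.2% against 49.4%. Leaving out mitochondrial genes, and libraries in the line differences, was added after the data were seen. With 2 libraries per siRNA, a left-out library leaves 1 whose spread is taken from the others. Depth limits KRT20, KRT23, KRT86 and KRT19 in SCaBER, and KRT81 under siFOXA1.2 in RT112.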
